A study of Homo sapiens with 8 samples.

Results

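The olfactory receptor genes of human chromosome 11 were examined as a set of genes that are normally silent outside the nose, in peak lists of accessible chromatin from mitotic cells. Members were the protein-coding genes of chromosome 11 in the RefSeq GRCh38.p14 gene table whose symbol is OR followed by digits, letters and digits. The rule gave 171 genes out of 19970 protein-coding genes on chromosomes 1 to 22 and X. For 3 of them (OR8U8, OR8U9 and OR9G9) the table lists a position that breaks the order of its chromosome, so they have no usable position. The other 168 were analysed, 67 of them below 30 Mb and 101 above it, against 19649 other protein-coding genes.

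ATAC-seq marks open chromatin by where Tn5 transposase can insert sequencing adapters, and it was run on 8 libraries of hTERT RPE-1, a telomerase-immortalised line of human retinal pigment epithelium. Every library came from Plk1-/- cells that carried EGFP-Plk1as, a tagged analog-sensitive form of the mitotic kinase Plk1, arrested in prometaphase with 5 µM STLC for 16 h and collected by shake-off. They were then held in STLC for 2 h with 0.5% DMSO (4 libraries) or with 10 µM 3MB-PP1, a bulky inhibitor that blocks the analog-sensitive kinase (4 libraries), at a mitotic index above 95% and with 50000 cells per reaction. Cells with wild-type Plk1 and cells outside mitosis were not analysed here.

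Olfactory receptors are G-protein-coupled receptors that bind odorants in the sensory neurons of the nose, where each neuron expresses a single allele of a single receptor gene and the other receptor genes stay packed in heterochromatin. They signal through the G protein encoded by GNAL, adenylyl cyclase 3 (ADCY3) and a cyclic-nucleotide-gated channel. Class I receptors, related to those of fish, sit in 1 cluster near the globin genes on the short arm of chromosome 11, and class II receptors make up the rest. Most of their coding sequence lies in a single exon, which makes these genes short.

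Most receptor promoters held no peak, and the 4 shown here were picked by their calls and not as typical ones. RefSeq lists a 300 bp promoter (250 bp before to 50 bp after the start) for 135 of the 168 genes. OR52N2 is shown because it was the single receptor gene with a promoter peak in all 8 lists, OR2AG2 because its promoter had one in 7 lists, OR56A4 because its promoter had a peak with DMSO in 4 of 4 lists and with 3MB-PP1 in 0 of 4, and OR5M1 because it was never called. Sequences are from RefSeq, GRCh38.p14, read 5′ to 3′ on the strand of the gene. Capitals mark CG dinucleotides, the motif TAATTA (a homeodomain core, as bound by LHX2) and the motif CCCNNGGG (the EBF or Olf-1 core), both of which read the same on either strand. The OR52N2 promoter is chr11:5808674-5808973 on the + strand, that of OR2AG2 chr11:6771927-6772226 on the - strand, that of OR56A4 chr11:6006897-6007196 on the - strand and that of OR5M1 chr11:56614825-56615124 on the - strand.
OR52N2: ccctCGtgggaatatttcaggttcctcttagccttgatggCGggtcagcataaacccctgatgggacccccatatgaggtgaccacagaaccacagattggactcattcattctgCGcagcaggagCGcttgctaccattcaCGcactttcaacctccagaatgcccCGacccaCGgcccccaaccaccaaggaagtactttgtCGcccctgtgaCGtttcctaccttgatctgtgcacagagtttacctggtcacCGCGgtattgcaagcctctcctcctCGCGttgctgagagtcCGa
OR2AG2: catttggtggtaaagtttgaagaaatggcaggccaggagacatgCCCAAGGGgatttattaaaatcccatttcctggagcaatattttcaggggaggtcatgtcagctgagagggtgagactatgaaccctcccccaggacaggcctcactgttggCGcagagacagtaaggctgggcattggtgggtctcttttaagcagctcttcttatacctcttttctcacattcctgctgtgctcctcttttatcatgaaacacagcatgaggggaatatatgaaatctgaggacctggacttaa
OR56A4: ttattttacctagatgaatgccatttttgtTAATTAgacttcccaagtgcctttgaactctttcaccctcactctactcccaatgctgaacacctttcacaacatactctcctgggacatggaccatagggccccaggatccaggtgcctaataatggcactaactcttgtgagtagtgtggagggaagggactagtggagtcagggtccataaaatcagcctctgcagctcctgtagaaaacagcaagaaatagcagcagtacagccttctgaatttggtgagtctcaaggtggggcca
OR5M1: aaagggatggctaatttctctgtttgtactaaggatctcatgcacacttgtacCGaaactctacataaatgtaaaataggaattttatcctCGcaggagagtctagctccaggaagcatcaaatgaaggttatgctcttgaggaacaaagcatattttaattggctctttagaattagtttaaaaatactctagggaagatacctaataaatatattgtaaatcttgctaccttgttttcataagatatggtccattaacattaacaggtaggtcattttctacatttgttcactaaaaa

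The OR52N2 promoter has a GC content of 55.3% and 14 CG dinucleotides, and neither motif. GC content was 47.0% for OR2AG2, with 1 CG dinucleotide and 1 CCCNNGGG, 46.7% for OR56A4, with 0 CG and 1 TAATTA, and 33.0% for OR5M1, with 2 CG and neither motif. Over the 138 promoter entries of the receptor genes the median GC content was 37.0% and the median number of CG dinucleotides was 1. Those medians were 62.7% and 21 over promoters of other protein-coding genes. TAATTA was in 24.6% of receptor promoters, in 3.26% of those of other protein-coding genes and in 4.85% of all promoters in the table. For CCCNNGGG the shares were 7.97%, 21.8% and 19.1%. TAATTA holds only A and T, and the fixed letters of CCCNNGGG are all C or G. The promoter sets differ in GC content, and the part of this in the motif shares was not tested. A match is a run of letters and not a bound site. Depending on the list, 5.19% to 9.63% of the 135 receptor genes had a peak over the promoter, against 65.1% to 71.5% of other protein-coding genes. Below 30 Mb the share was 10.2% to 24.5% and above it 0% to 3.49%. Such a peak was present in at least 1 list for 30 of the 135 receptor genes and in all 8 for 1. Of 15676 other protein-coding genes with a promoter entry, 12877 had one in at least 1 list and 8923 in all 8.

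For the gene-level calls, a list called a gene if any of its peaks overlapped the gene or 1 kb either side. Receptor genes were called far less often than other genes, but a large minority was called in every library. DMSO replicates 1 to 4 called 52, 71, 71 and 72 of the 168 receptor genes, and 3MB-PP1 replicates 1 to 4 called 70, 71, 80 and 67. DMSO replicate 1 was the lowest of the 8 and 3MB-PP1 replicate 3 the highest, and the groups overlapped. The share of receptor genes called was lower than that of other protein-coding genes by 44.5 to 57.1 percentage points within a library, lower in 8 of 8. The mean difference (receptor genes minus others) was -48.1 points (SD 3.96, n = 8, exact two-sided sign-flip p = 0.0078, the smallest that 8 libraries allow, and 0.0078 adjusted over 2 such tests).

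Gene length moved with this difference. Receptor genes had a median span of 1103 bp (912 to 165335 bp). Among genes spanning at most 2 kb, 18.5% to 38.0% of 92 receptor genes were called, against 45.1% to 59.1% of 1120 other protein-coding genes. The mean difference in this length class was -20.1 points (exact two-sided sign-flip p = 0.0078, n = 8). Peak density per Mb gave the same order within this class, with 1.17 to 1.97 times the density of chromosome 11 in the same list over the short receptor windows and 2.43 to 2.99 times over those of the other short genes. Over all receptor windows merged (1.32 Mb) the density was 1.11 to 1.40 times that of the chromosome. It was 1.43 to 2.16 times below 30 Mb and 0.590 to 0.837 times above, so receptor windows were denser than the chromosome below 30 Mb and sparser above.

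Other silent gene groups gave a scale for these shares. Receptor genes on other chromosomes (n = 219) were called in 43.8% to 58.5% of cases per list, the bitter taste receptors TAS2R (n = 24) in 25.0% to 41.7%, and the keratin-associated proteins KRTAP (n = 94), which are made in hair follicles, in 35.1% to 62.8%. Receptor pseudogenes of chromosome 11 (n = 205) were called in 16.6% to 30.7%. The cytosolic ribosomal protein genes (n = 81), active in every cell, were called in 96.3% to 98.8%. The receptor genes of chromosome 11, at 30.95% to 47.6%, lay within the spread of these silent groups, and no silent group reached the ribosomal protein genes in any list. Median spans differed, at 1103 bp for these receptor genes, 5165 bp for those on other chromosomes and 5015 bp for the ribosomal protein genes. Among receptor genes of at most 2 kb, 18.5% to 38.0% were called on chromosome 11 and 33.7% to 53.3% on other chromosomes (n = 92 each).

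**Figure D1:**
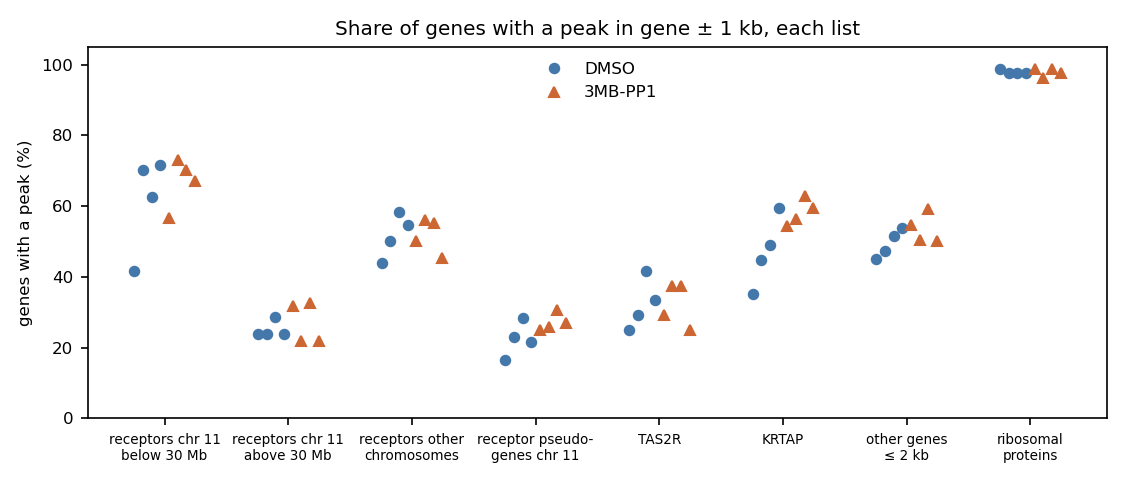
Share of genes with a peak in the gene or 1 kb either side (y axis, percent), 1 point per peak list, for 8 gene groups (x axis). Circles are the 4 DMSO lists and triangles the 4 3MB-PP1 lists, each in replicate order. Receptor genes below 30 Mb lie at 41.8% to 73.1% and those above 30 Mb at 21.8% to 32.7%, while ribosomal protein genes lie above 96%.

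Many receptor genes were called in no library at all. Of the 168 receptor genes, 57 (33.9%) were called in none of the 8 lists, against a background of 4.17% of all 19817 protein-coding genes. Only 25 (14.9%) were called in all 8, against a background of 78.6%. The remaining 86 (51.2%) were called in 1 to 7 lists. Below 30 Mb 4 genes were never called and 15 were called in all 8, and above 30 Mb 53 were never called and 10 were called in all 8. Of the 25 genes called in all lists, 22 span more than 2 kb, as do 20 of the 57 never called. The background genes are longer, with a median span of 24505 bp against 1103 bp. Among genes spanning at most 2 kb, 40.2% of 92 receptor genes and 23.4% of 1120 other protein-coding genes were never called. In this length class 3.26% of the receptor genes and 27.1% of the others were called in all 8 lists. Across the 168 genes, which share libraries and in part windows, window length and recurrence had a Spearman rho of 0.45 (0.53 below and 0.34 above 30 Mb).

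**Figure D2:**
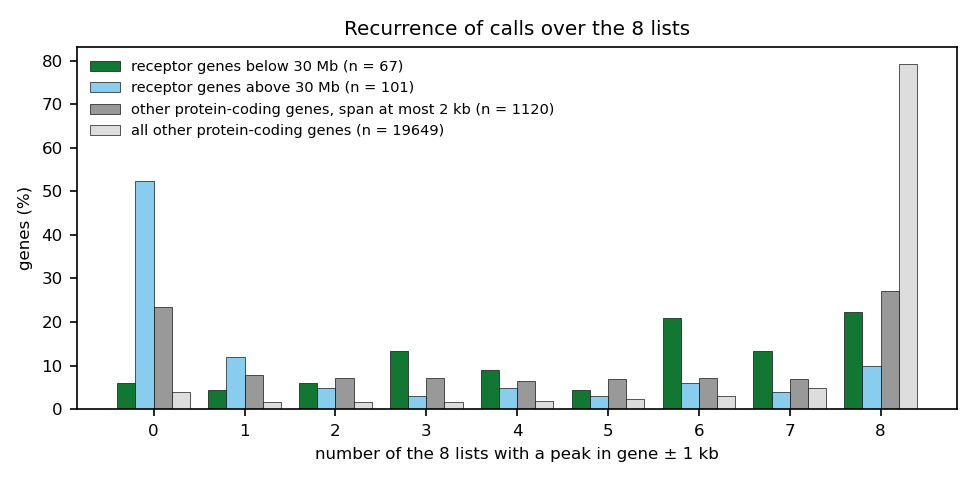
Percent of genes (y axis) by the number of the 8 lists in which the gene had a peak within 1 kb (x axis, 0 to 8), for receptor genes below and above 30 Mb and for 2 comparison groups. Most receptor genes above 30 Mb stand at 0 lists (53 of 101), and those below 30 Mb peak at 6 and 8 lists. Of all other protein-coding genes 79.2% stand at 8 lists. Of other protein-coding genes spanning at most 2 kb 27.1% stand at 8 lists and 23.4% at 0.

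Receptor genes below 30 Mb were called more often than those above, although 1 run above 30 Mb, at the far end of the chromosome, was called more often still. Below 30 Mb 28, 47, 42 and 48 of 67 genes were called in the DMSO lists and 38, 49, 47 and 45 in the 3MB-PP1 lists. Above 30 Mb the counts were 24, 24, 29 and 24 of 101 with DMSO and 32, 22, 33 and 22 with 3MB-PP1. In percent, every library called more of the genes below 30 Mb, by 18.0 to 51.4 points, with a mean of 38.2 points (SD 11.9, n = 8, exact two-sided sign-flip p = 0.0078, adjusted p = 0.0078). The size of the gap went with the replicate number: it was 18.0 to 37.5 points in odd-numbered replicates and 45.4 to 51.4 points in even-numbered ones, which do not overlap. The odd-numbered lists also held more peaks on chromosome X (0.868% to 0.933% of peaks, against 0.595% to 0.694%), and the part of this split in the gap was not tested. Genes below 30 Mb were longer (median span 2076 bp against 1036 bp), and among genes of at most 2 kb the gap was 36.1 points. It shrank to 16.1 points when only peaks of -log10 q of at least 2 were kept and to 4.10 points at 5. Receptor pseudogenes showed the same order, 27.6% to 62.1% called below and 10.9% to 21.1% above 30 Mb. The table places all 55 class I genes below 30 Mb. The 12 class II genes there were called in 33.3% to 83.3% of cases, over a range that takes in the 43.6% to 72.7% of class I genes. Those class II genes are longer, with a median span of 5280.5 bp against 1152 bp for class I.

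Above 30 Mb the receptor genes were not of 1 kind. Splitting the 168 genes wherever neighbours lay more than 1 Mb apart gave 7 runs, and the following differences between runs were noticed in the data and are given without a test. Run 1 (4.37 to 7.94 Mb, 67 genes, all those below 30 Mb) is followed by 7 genes at 48.22 to 48.49 Mb, 2 at 49.95 to 49.98 Mb, 48 at 54.60 to 56.99 Mb (run 4), 21 at 58.02 to 59.71 Mb (run 5), OR2AT4 alone at 75.08 to 75.10 Mb and 22 at 123.75 to 124.57 Mb (run 7).

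Run 4 was nearly empty. The DMSO lists called 0, 0, 1 and 1 of its 48 genes, and the 3MB-PP1 lists called 3, 0, 1 and 0. Over all lists 45 of the 48 were never called. The exceptions were OR9G1, called in 2 DMSO and 2 3MB-PP1 lists, and OR5AS1 and OR9G4, called in 3MB-PP1 replicate 1 alone. Peaks were rare over the whole interval and not at the receptor genes alone. Its 2.39 Mb held 1 to 37 peaks per list, 0.00707 to 0.161 times the density of chromosome 11. Of 63 receptor pseudogenes inside it 58 were never called, and its 2 other protein-coding genes, TRIM48 and TRIM51, were called in 0 lists. Run 4 begins beside the centromere, and the 3 bins of 1 Mb that held no peak in any list lie at 51 to 54 Mb. The 1 Mb before the run held no peak in any list and the 1 Mb after it had 0.522 to 1.30 times the chromosome's density. Of the 135 bins of 1 Mb on chromosome 11, the bin wholly inside run 4 had a mean ratio of 0.067, and 4 others were as low or lower, those 3 among them. How reads from repeated sequence were treated is not given in the sources used here, and the part of mappability in these counts was not tested. Without run 4 the gap between genes below and above 30 Mb was 16.1 points in place of 38.2 (exact two-sided sign-flip p = 0.0234, n = 8, a comparison chosen after run 4 was seen). In DMSO replicate 1 the direction then turned, with 24 of 53 genes called above 30 Mb (45.3%) and 28 of 67 below (41.8%).

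Run 7, at the far end of the long arm, was the opposite. Its 22 genes were called at 15, 19, 20 and 18 in the DMSO lists and at 15, 18, 18 and 19 in the 3MB-PP1 lists. In every list this was a larger share than in run 1, 68.2% to 90.9% against 41.8% to 73.1%. None was missing from all lists and 9 were called in all 8. The interval had 1.39 to 2.29 times the density of chromosome 11, and 3 of the 135 bins matched or exceeded its mean of 1.82. The 1 Mb before run 7 had 1.455 to 1.901 times the chromosome's density, and the 1 Mb after it 1.497 to 1.895. Both ranges lay within that of the run, so the high density was not confined to the receptor interval. The interval of run 1 had 1.12 to 1.79 times the chromosome's density. The 1 Mb before it had 0.965 to 1.75 times and the 1 Mb after it 1.36 to 1.73 times. All 43 other protein-coding genes inside run 1 were called in at least 1 list, against 97.1% of other protein-coding genes of chromosome 11. The 43 include 8 TRIM genes, several of them antiviral restriction factors such as TRIM5 and TRIM22. Each of the 8 was called in all 8 lists, as were 78.6% of all protein-coding genes. The 8 are long (median span 22764.5 bp) and share peaks, since the span of TRIM5 takes in TRIM6, TRIM34 and TRIM6-TRIM34.

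Run 5 differed between odd-numbered and even-numbered replicates. It called 7, 4, 5 and 3 of 21 genes in DMSO replicates 1 to 4 and 11, 2, 11 and 1 in 3MB-PP1 replicates 1 to 4. Odd-numbered replicates lay at 5 to 11 genes and even-numbered ones at 1 to 4, so those did not overlap, while the treatment groups did. The 7 genes at 48 Mb showed the same order, with 2 to 3 called in odd-numbered and 0 to 1 in even-numbered replicates. In runs 1, 4 and 7 odd-numbered and even-numbered replicates overlapped.

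**Figure D3:**
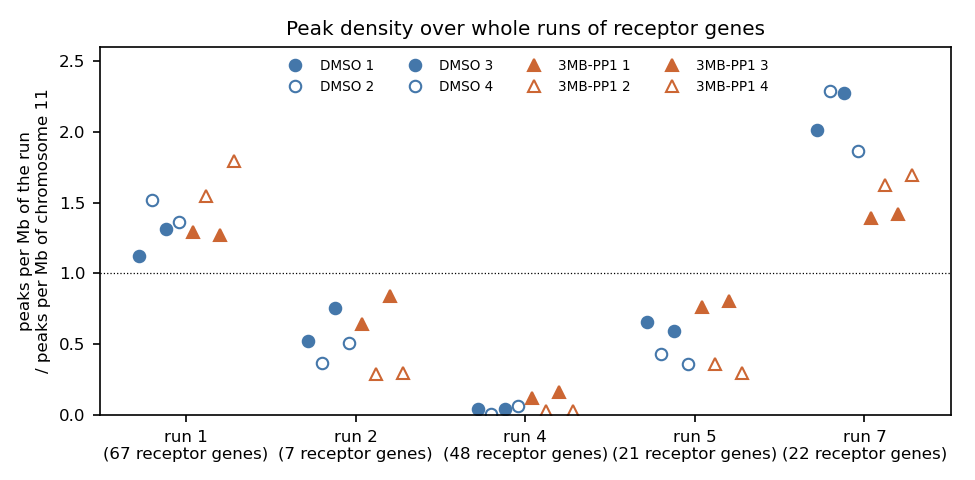
Peak density over the whole interval of each run of at least 7 receptor genes, as a multiple of the density of chromosome 11 in the same list (y axis), 1 point per list. Filled symbols are odd-numbered and open symbols even-numbered replicates, and the dotted line marks the chromosome's own density. Run 4 lies at 0.00707 to 0.161 and run 7 at 1.39 to 2.29, and in runs 2 and 5 the filled symbols lie above the open ones.

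Base composition also differed between runs. The median promoter GC content was 39.8% in run 1, 40.7% in run 5 and 39.7% in run 7. It was 33.2% in run 4, 32.3% in the run at 48 Mb and 34.8% in the run at 49.95 Mb (2 promoters). Run 5 was called less often than runs 1 and 7. Run 4 and the runs at 48 and 49.95 Mb, with lower medians, were also called less often than runs 1 and 7. Across the 135 genes with a promoter entry, promoter GC content and recurrence had a Spearman rho of 0.56 (0.53 for the 49 below and 0.62 for the 86 above 30 Mb). Neighbouring genes share libraries and local base composition, and the part of base composition in the calls was not tested.

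**Figure D4:**
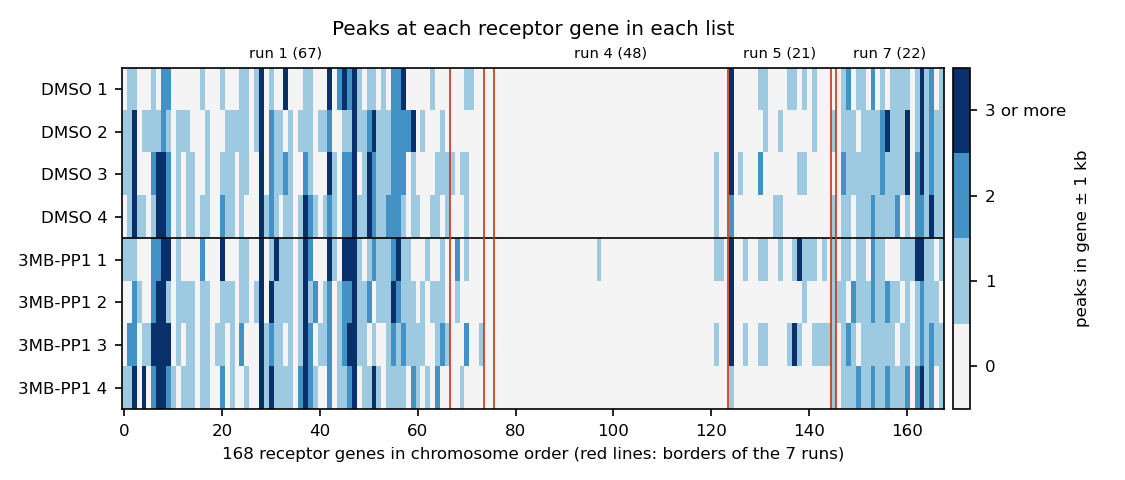
Number of peaks in the gene or 1 kb either side for each of the 168 receptor genes in chromosome order (x axis) in each of the 8 lists (rows), shaded from 0 to 3 or more. Red lines mark the borders of the 7 runs. The 48 genes of run 4 are blank but for 3 genes, and calls are dense in runs 1 and 7 in both treatments.

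Calls also varied by receptor family. For a family within 1 run, the parts of family and run cannot be told apart. For families spread over several runs these parts were not tested. Among families of at least 4 genes, family 56 (7 genes) was called in 80.4% of gene-by-list cases, family 2 (5 genes) in 67.5% and family 52 (25 genes) in 64.0%. The lowest were family 9 (5 genes) at 40.0%, family 4 (24 genes) at 13.0% and family 5 (34 genes) at 9.19%. Families 52 and 56 lie wholly in run 1. Of the 34 family 5 genes 25 were never called, 23 of them in run 4. Of the 24 family 4 genes 13 were never called, 10 of them in run 4. Family 8 (22 genes) was called in 40.9% of cases, and its 11 never-called genes were its 11 genes in run 4. Family 10 (16 genes) had 1 never-called gene, its only gene in run 4.

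The strongest peaks at receptor genes lay in run 1. Overlapping peaks of the 8 lists were merged into 308 regions at receptor genes, and peak scores below are the authors' -log10 q, which ranks peaks only within its own list. OR52N4 and OR56B1, class I genes of which the second lies within the annotated span of the first, shared the strongest region, chr11:5736458-5738603. Its -log10 q was 10.1, 11.2, 11.5 and 9.91 with DMSO and 12.7, 7.73, 8.75 and 7.92 with 3MB-PP1. In within-list percentiles that was 93.7, 96.0, 95.5 and 97.4 with DMSO and 98.0, 97.3, 97.3 and 97.6 with 3MB-PP1, which overlap. A region at the 3′ end of OR52K1, chr11:4492381-4493789, scored 4.72, 3.28, 8.02 and 3.66 with DMSO and 4.55, 3.28, 5.12 and 3.49 with 3MB-PP1, and stood at the 87.8th to 95.6th percentile of its list. A region shared by OR51C1 and OR51E2, a receptor known for its expression in prostate, chr11:4696240-4698138, scored 4.76, 4.14, 5.62 and 2.56 with DMSO and 3.30, 2.47, 4.00 and 1.77 with 3MB-PP1, and stood at the 73.4th to 94.5th percentile. The percentiles of both regions overlap between treatments. Peaks of -log10 q of at least 5 were rare, 1 to 4 per list, and 6 receptor genes ever had one.

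The region over the OR52N2 promoter shown above, chr11:5807775-5809479, scored 5.12, 4.52, 6.06 and 2.20 with DMSO and 2.13, 1.71, 2.44 and 2.10 with 3MB-PP1. In within-list percentiles it stood at 88.7, 91.5, 92.9 and 82.5 with DMSO and at 74.4, 71.8, 87.6 and 83.7 with 3MB-PP1, which overlap. OR6M1 in run 7, 942 bp long, was the gene above 30 Mb with the highest mean percentile among those called in all lists. Its region at chr11:123804998-123806333 scored 3.36, 3.08, 3.11 and 1.97 with DMSO and 2.23, 2.11, 2.03 and 1.37 with 3MB-PP1. In percentiles that was 83.0, 87.8, 86.2 and 76.1 with DMSO and 78.7, 84.9, 79.1 and 41.8 with 3MB-PP1, which overlap.

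Long annotated spans carried several of the other genes called in every list. OR51B5 is annotated over 165335 bp, a window that takes in 6 other receptor genes, and held 13 to 22 peaks per list. OR56A3 is annotated over 79760 bp, with 4 other receptor genes in its window, and held 7 to 14. OR51D1, of 5584 bp, held 1 to 4. Of the 25 genes called in all lists, 20 touched at least 1 region called in all 8, 5 were called through regions that differed between lists, and 13 shared their window with another receptor gene. No protein-coding gene of another kind lay in the windows of the 25. The never-called genes with the longest windows were OR51A7 (5680 bp), OR51A4 (4775 bp) and OR52H1 (3980 bp) below 30 Mb, and OR8J1 (7221 bp), OR5D3 (5846 bp) and OR5M1 (5639 bp) above. All 3 of the latter lie in run 4. No call means no peak past the list's threshold, whose largest q was 0.1, and not that signal was absent.

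**Figure D5:**
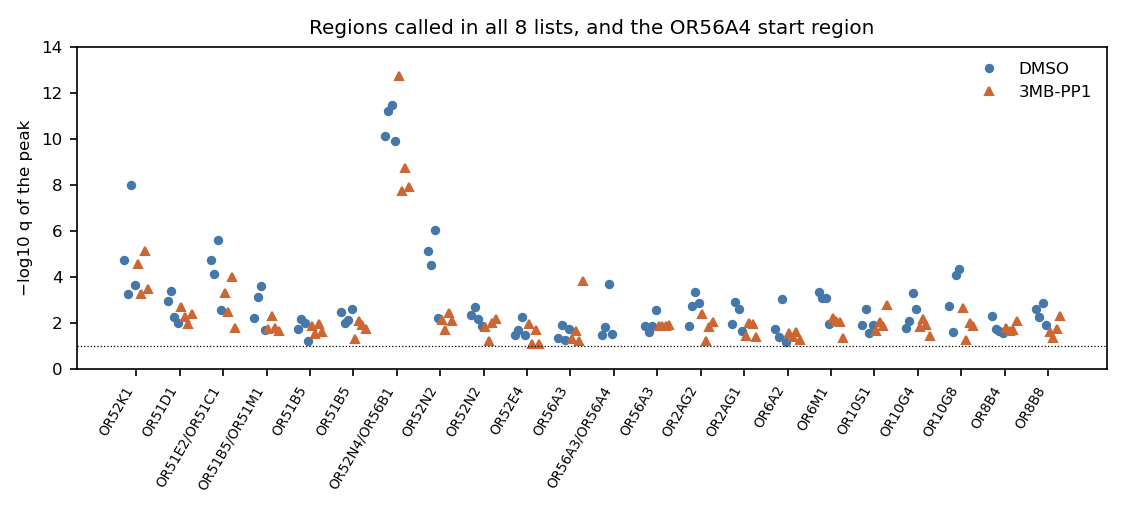
The authors' -log10 q (y axis) of the peak in each list for the 21 regions at receptor genes called in all 8 lists and for the OR56A4 start region (labelled OR56A3/OR56A4), in chromosome order (x axis). Circles are DMSO and triangles 3MB-PP1 lists, and the dotted line marks a q of 0.1. Scores rank peaks only within a list, and in each of the 8 lists the OR52N4/OR56B1 region, at 7.73 to 12.7, is the highest of those shown.

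Of the 308 regions, 144 (46.8%) came from a single list and 21 (6.82%) from all 8, close to the 52.2% and 6.28% of all 29714 regions on chromosome 11. A gene span was overlapped by 281 (91.2%) and a receptor promoter by 32 (10.4%). The regions were picked for overlapping a receptor gene or 1 kb either side, so a high share over gene spans follows from the choice. Promoters were listed for only 135 of the 168 receptor genes, and neither share was counted over other regions.

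The second question was whether Plk1 inhibition moved these calls, and no measure of the receptor genes differed between the groups beyond the spread of the libraries. The share of receptor genes called was 39.6% ± 5.76 with DMSO and 42.9% ± 3.33 with 3MB-PP1 (SD, n = 4 each), a difference of 3.27 points (exact two-sided permutation p = 0.571, adjusted 0.857 over 6 measures). The difference was 8.04 points in odd-numbered and -1.49 points in even-numbered replicates, and without DMSO replicate 1 it was 0.397 points. The gap between genes below and above 30 Mb was 36.6 ± 13.8 points with DMSO and 39.8 ± 11.4 with 3MB-PP1 (exact permutation p = 0.714, adjusted 0.857, n = 4 each). With 4 libraries against 4 the smallest possible p is 0.0286, so 1 measure alone could not pass after adjustment, and a p above the threshold does not show that the groups were alike.

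Peak density over the receptor windows was 1.23 ± 0.120 times that of chromosome 11 with DMSO and 1.22 ± 0.122 with 3MB-PP1 (exact permutation p = 0.886, adjusted 0.886, n = 4 each). Peaks covered 4.31% ± 0.749 of the windows with DMSO and 3.82% ± 0.366 with 3MB-PP1 (exact permutation p = 0.257, adjusted 0.571, n = 4 each). The median percentile of receptor peaks within their list was 56.4 ± 6.14 and 52.3 ± 4.58 (exact permutation p = 0.286, adjusted 0.571, n = 4 each), near the middle of the lists. Median peak width at receptor genes was 356.5, 442, 436 and 425 bp with DMSO and 273, 398.5, 356 and 387 bp with 3MB-PP1. It was lower with 3MB-PP1 in 4 of 4 same-numbered pairs, by 61.25 bp on average, but the groups overlapped (exact permutation p = 0.114, adjusted 0.571, n = 4 each). Over whole lists the median width was 355 to 409 bp with DMSO and 269 to 324 bp with 3MB-PP1, without overlap, and the part of this in the receptor widths was not tested.

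Gene by gene, no receptor gene separated the treatment groups. None was called by all 4 DMSO lists and by 0 of the 3MB-PP1 lists, against a background of 0.0151% of protein-coding genes, nor the reverse, against 0.0807%. None differed by 3 or more lists either, against 0.257% of genes with more DMSO lists and 0.706% with more 3MB-PP1 lists. With 168 genes those shares amount to very few genes, so a count of 0 is near the background. A difference is possible only for the 86 genes called in 1 to 7 lists. Of these 27 (31.4%) were called in as many DMSO as 3MB-PP1 lists, 37 (43.0%) in more 3MB-PP1 lists and 22 (25.6%) in more DMSO lists. Over the 3408 protein-coding genes called in 1 to 7 lists the shares were 19.0%, 46.8% and 34.2%. The largest difference, 2 lists, was reached by 10 genes with 3MB-PP1 and by 3 with DMSO (OR52J3, OR52B2 and OR8G1, named after their values were seen). The share of all protein-coding genes that differ by 2 lists was not counted, and those genes also leaned to 3MB-PP1. The 10 against 3 is therefore not read as a shift of the receptor genes.

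At the level of regions 1 of 308 (0.325%) separated the groups. The region at the start of OR56A4, a class I gene on the - strand, chr11:6006625-6007039, was called with DMSO in 4 of 4 lists and with 3MB-PP1 in 0 of 4, against a background of 0.12% of all 588244 merged regions. No region at a receptor gene was called the other way, against 0.148%. With 308 regions those shares amount to very few regions, so counts of 1 and 0 are near the background. The -log10 q of the OR56A4 start region in the DMSO lists was 1.46, 1.82, 3.68 and 1.52, and its within-list percentile 27.3, 65.2, 89.1 and 50.8. The lists thus placed it from the lower part (DMSO replicate 1) to the upper part (DMSO replicate 3) of their range. OR56A4 as a gene, with its other regions, was called in 4 DMSO and 3 3MB-PP1 lists. OR8B4, a class II gene in run 7, was called in 4 and 4 lists with its 1 kb flanks, but in 4 DMSO and 0 3MB-PP1 lists by the gene span alone. It was seen in 1 of several alternatives, and the share of all protein-coding genes that do so by gene span was not counted. No treatment difference is read from it.

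Marker genes of the labelled cell type and of others were read in the same way, beside the 78.6% of all protein-coding genes called in all 8 lists. All 7 epithelial and mesenchymal genes of cultured RPE-1, among them KRT8 and VIM, were called in all 8 lists, as were 6 of 8 retinal pigment epithelium genes. BEST1 was called in 7 lists and RPE65, the visual-cycle isomerase, in 2. Of 13 genes of olfactory neurons and their signalling 10 were called in all 8 lists, including GNAL and ADCY3, which are long genes. The counts for the retinal and the olfactory list are near that background and tell neither cell type from the rest of the genome. OMP, the marker protein of mature olfactory neurons, with a span of 492 bp, was called in 1 DMSO list and in 0 3MB-PP1 lists. CNGA2, a channel subunit, was called in 4 lists and RTP1, a receptor transport protein, in 6. CNGA4, the channel subunit that lies inside run 1, was called in all 8. Among the globin genes, which are silent outside red blood cells and lie inside run 1, HBD was called in 8 lists, HBB in 7, HBG2 in 5, and HBG1 and HBE1 in 1 each.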

How the data were processed

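ATAC-seq peak lists of 8 libraries were used, 4 DMSO and 4 3MB-PP1, grouped and numbered by their titles. The series' design text calls them 4 biological replicates. The build hg38 and the tools MACS2 and DESeq2 are named, with no version or role, per the submitters' processing notes. The aligner, read filters, treatment of reads that map to near-identical copies (receptor genes have close paralogs, and some lie beside the centromere), Tn5 shift, calling control and depth per library are not given in the sources used here. The lists, called per library, held 150577 to 252752 peaks, and each holds only peaks past its threshold.

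The lists have no header. By their values, each line holds a deposited width in bp, a deposited pileup (signal, with no stated scaling between libraries), a deposited -log10 p and -log10 q, and a deposited fold enrichment (ratio to background within the library). These values are the authors' own, and served here to rank and filter peaks inside 1 list at a time.

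A gene was called in a list with a peak overlapping it or 1 kb either side by at least 1 bp. Genes came from the RefSeq table of GRCh38.p14. 153 protein-coding genes whose positions break the order of their chromosome were left out. Percentiles rank peaks of a list by -log10 p, ties by fold. The treatment groups were compared by an exact two-sided permutation test of their means over 70 assignments, Benjamini-Hochberg adjusted over 6 measures, and within-library differences by sign flips (256 assignments, adjusted over 2). The members and gene lists were chosen with earlier results of these data known. Named genes were at most 10 called in all 8 lists with the highest mean percentile, the 5 with the highest -log10 q, the 3 never-called genes with the longest windows on each side of 30 Mb, genes separating the groups, OR56A4, the 3 highest and 3 lowest families, OMP, CNGA4 and the globins. Other genes or regions named were chosen after their values were seen.

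Alternatives were the gene span alone, 5 kb flanks, a -log10 q of at least 2 or 5, lists cut to equal length, widths of at least 300 bp, an overlap of 50%, spans of at most 10 kb, each library left out, odd and even replicates, and the replicate number as a block. The software was scipy 1.17.1 with pandas 2.3.3 and numpy 2.4.6 in Python 3.11.15, and matplotlib 3.10.9 for plots. Peak counts were checked against bedtools 2.31.1, with 0 differences over 168 windows, and the tests were tested on simulated data.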

Additional observations from a re-analysis of the deposited data

Results flagged for a closer look

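DMSO replicate 1 stood apart from the other DMSO libraries in the share of receptor genes called. It called 30.95% of the 168 genes, and the other 3 called 42.3% to 42.9%, a gap of 0.95 of the group's range. DMSO replicate 3 stood apart in the share called above 30 Mb, with 28.7% against 23.8% in each of the other 3. These are 2 of 18 groups and measures examined for a library far from the others. Chance flags about 1 in 20.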

How the results depend on the processing

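The 2 within-library results, receptor genes against other genes and genes below against above 30 Mb, kept their direction and an adjusted exact sign-flip p under 0.05 in every alternative with a test but the replicate block. With the replicate number as a block, the differences were -48.1 and 38.2 points with an adjusted p of 0.125, the smallest that 16 assignments of 4 pairs allow. The numbers were not taken to pair the samples: same-numbered libraries correlated at 0.155, 0.0863, 0.102 and 0.110 over 19817 genes, not every one above 0.1. The best partner of DMSO replicates 2 and 3 and of 3MB-PP1 replicate 4 had another number. The other libraries had a best partner of their own number. In every library, however, the best partner was odd-numbered for an odd number and even-numbered for an even one. The permutation test between treatments does not take this split into account. The block made no call of a treatment difference. With each library left out, the differences ranged from -48.6 to -46.8 and from 36.3 to 41.1 points. The share of receptor genes called (3MB-PP1 minus DMSO) turned to -2.98 points at a -log10 q of at least 2, -0.595 at 5, -1.04 with lists of equal length and -1.19 with widths of at least 300 bp. It was 8.04 in odd and -1.49 in even replicates, and 0.397 to 4.37 with a library left out. The density ratio difference turned to 0.0021 with 5 kb flanks and 0.076 with widths of at least 300 bp, moved to -0.265 at a -log10 q of at least 2, and ranged from -0.0697 to 0.0452 with a library left out, turning positive without DMSO replicate 2, 3MB-PP1 replicate 2 or 3MB-PP1 replicate 3. The percentile difference turned to 4.86 at a -log10 q of 2, 2.84 at 5 and 2.83 with equal lists, was 1.47 in odd and -9.70 in even replicates, and ranged from -7.05 to -2.31. The difference in the gap between clusters turned to -1.26 at a -log10 q of 2 and -1.49 at 5, and ranged from -2.94 (without DMSO replicate 1) to 8.17, turning negative also without 3MB-PP1 replicate 2. Width and coverage kept their sign in every alternative. With a library left out they ranged from -80.7 to -34.4 bp and from -0.834 to -0.236 points. Width moved to -168.9 bp at a -log10 q of 2, -378.75 bp at 5 and -93.9 bp with 5 kb flanks (exact permutation p = 0.0286, the smallest possible, adjusted 0.171), and coverage to -0.923 points at 2 (exact permutation p = 0.0286, adjusted 0.171) and -0.960 with equal lists. By gene span alone 1 gene was called in 4 DMSO and 0 3MB-PP1 lists. Called in both lists of a group and neither of the other were 1 (DMSO) and 5 (3MB-PP1) genes in odd replicates, and 1 and 1 in even ones. The share of all protein-coding genes that do so was not counted, and no treatment difference is read from these counts. With a library left out, the counts of receptor genes called in every list of a group and in 0 of the other stayed at 0. None of the treatment differences passed the threshold after adjustment in any alternative, and the cause of each change was not tested. Leaving out run 4, limiting spans to 2 kb and including all 171 genes at their listed positions were chosen after seeing the data. The lists give no reads, so signal below a list's threshold could not be examined.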

Other observations

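Receptor genes differed between chromosomes in the same lists. The 13 genes on chromosome 17 were called in 61.5% to 92.3% of cases per list and none of them was missing from all lists. The 20 genes on chromosome 19 were called in 40.0% to 80.0%, again with 0 never called. At the other end, 13 of 24 genes on chromosome 14 were never called (12.5% to 41.7% per list), and 6 of 10 on chromosome 3 (0% to 40.0%). Chromosome 11, with 57 of 168 never called, lay between these, and chromosome 1, with 61 genes, had 10 never called (36.1% to 59.0% per list). The 25 genes on chromosome 9, with a median span of 960 bp, were called in 52% to 72%, with 2 never called. Median spans were 8533 bp on chromosome 19, 6286.5 bp on chromosome 14 and 1103 bp on chromosome 11, and the part of gene length in these differences was not tested.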
